A study of Mus musculus with 24 samples.

Results

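Liver transcripts of mice on a high sucrose diet were compared with those of mice on normal chow. The comparison used the 9 of the 24 samples of the study that carry one of these diet names: 4 on normal chow (NC) and 5 on high sucrose (HS). All mice were wild-type C57BL/6 animals that entered the study at 8 to 10 weeks of age and ate their diet for 8 weeks. The other diets added cholesterol, cholic acid or both. They enter here through the shared estimate of spread, the filter on low counts and the scaling for library composition. Bulk RNA from a piece of whole liver was sequenced, and the libraries were chosen by the diet in the name of their column. Sex, feed composition and the feeding state at harvest are not given in the sources used here, so sucrose cannot be told apart from any other difference between the feeds. The labels number the livers without saying that each came from its own animal. The p-values therefore set the diets against the spread between libraries of the fitted diets, which may not be the spread between animals.

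Sucrose is split in the gut into glucose and fructose, and hepatocytes phosphorylate fructose with ketohexokinase, without the control that phosphofructokinase exerts on glucose. Carbon from both sugars feeds fat synthesis under the transcription factors ChREBP and SREBP1c, and triglyceride leaves the liver on lipoproteins. Hepatocytes also clear drugs, lipid aldehydes and hormones through P450 enzymes, hydrolases, transferases that add glutathione or glucuronic acid, and export pumps.

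The deposited libraries held 7598660 to 8215500 reads in NC and 6790751 to 7769883 in HS. Albumin (Alb), the main secreted protein of hepatocytes, stood at 85754 to 94530 CPM in NC and 65910 to 77432 CPM in HS, where CPM is reads of a gene per 1000000 reads after scaling for library composition. Every HS library was below every NC library, and the gene did not pass the test (log2 fold change −0.38 ± 0.15, edgeR adjusted p = 0.338). Markers of muscle summed to at most 1.20 CPM, those of neutrophils to at most 3.56 CPM and those of pancreas to at most 20.2 CPM, with 5 of 8 muscle and 8 of 13 pancreas markers at 0 in all 9. The 8 adipose markers summed to 3504 to 6058 CPM in NC and 1423 to 2679 CPM in HS without overlap. Nearly all of this was Car3, carbonic anhydrase 3, which hepatocytes also express (3497 to 6035 against 1413 to 2672 CPM, adjusted p = 0.0967). The other 7 adipose markers summed to 6.37 to 22.9 CPM in NC and 6.75 to 13.9 CPM in HS, and Lep, Plin1 and Retn were at 0 in all 9. The 10 gut and gallbladder markers summed to 1590 to 1961 CPM in NC and 1245 to 1531 CPM in HS, also without overlap. Most of this was Pigr, the polymeric immunoglobulin receptor (1468 to 1914 against 1121 to 1399 CPM, adjusted p = 0.295), and the other 9 summed to 47.4 to 122 and 80.8 to 179 CPM. Libraries also differed within a diet. Relative to the mean of each gene over the 20 fitted libraries, levels fell with transcript length in NC_3, HS_0, HS_1 and HS_2. On the same scale they rose with it in NC_0, NC_1, NC_2, HS_3 and HS_4. A rising (positive) or falling (negative) length trend has this relative sense throughout. The first principal component of the 9 libraries, with 41.5% of the variance, followed that trend, and the second, with 18.4%, separated the diets. Mitochondrial transcripts took 8.65 to 9.03% of reads in NC_0 to NC_2, 13.7% in NC_3 and 10.7 to 12.8% in HS. NC_3 also stood apart in some clock genes. Its Dbp level, a clock output, was 3.83 CPM against 35.6 to 75.6 CPM in the other NC libraries. Cry1, also a clock gene, stood at 20.7 CPM in NC_3 against 9.02 to 12.2 CPM in the others. The clock gene Per1 did not stand apart, at 13.2 CPM in NC_3 against 13.7 to 23.7 CPM in the others. For 1 of the samples titled HS the diet field reads normal chow. Which library it is cannot be read from the names, so none of the 5 was dropped, and the test was repeated without each.

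**Figure D1:**
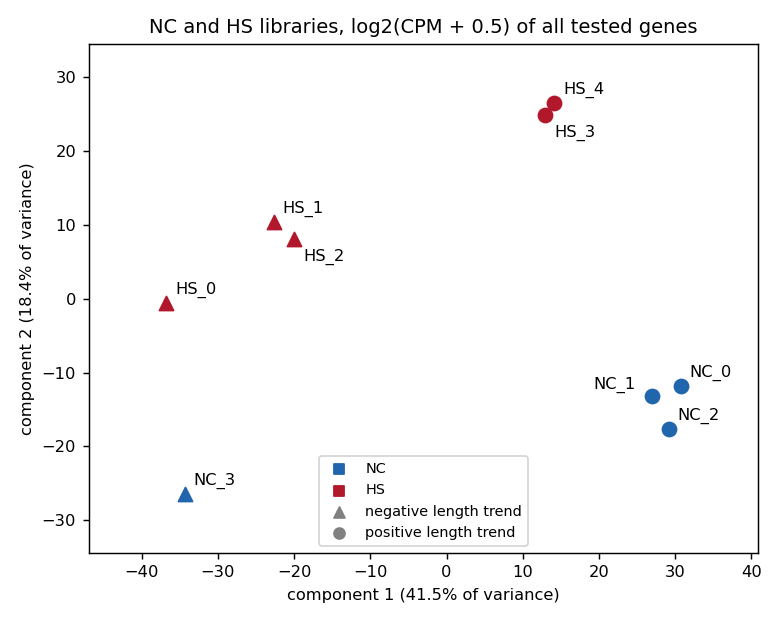
Principal components of log2(CPM + 0.5) over all tested genes, one point per library. Colour gives the diet and shape the sign of the length trend, relative to the mean of the 20 fitted libraries. The horizontal axis (41.5% of variance) places NC_3 with HS_0, HS_1 and HS_2, and on the vertical axis (18.4%) all 4 NC libraries lie below all 5 HS libraries.

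After 8 weeks on high sucrose, more genes passed the test as lower than as higher. The fallen genes included carboxylesterases, glutathione S-transferases, aldehyde and epoxide enzymes, the taurine enzyme Csad and the zinc importer Slc39a4. With edgeR's quasi-likelihood test, of 12595 genes tested 27 rose (0.214%) and 55 fell (0.437%), or 82 in either direction (0.651%), at an adjusted p under 0.05. For 78 of these 82 the ranges of the 2 diets did not overlap. Over all genes tested, 273 (2.17%) had every HS library above every NC library and 335 (2.66%) had every HS library below. At an unadjusted p under 0.05 in the same test, 698 genes were higher and 700 lower. The median log2 fold change of all tested genes was 0.02.

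The test was repeated 9 times, each time without 1 library. In all 9 repeats, 5 of the risen genes (0.0397% of genes tested) and 25 of the fallen genes (0.198%) were called again. Their median absolute log2 fold change was 1.84, against 1.12 for the other 52. Another 7 genes were called in 8 repeats, 9 in 5 to 7 and 36 in 4 or fewer, of which 1, D0H4S114, was called in none, and no called gene changed direction in any repeat. Without NC_2, 6 of 27 and 29 of 55 were called again. Without NC_3 the test called 58 higher and 100 lower genes, among them 21 of the 27 and 52 of the 55. Without another library the kept calls numbered 10 to 17 of 27 and 31 to 43 of 55. Another fit was restricted to libraries with a rising length trend, 5 of NC and HS and 7 of the other diets. In it NC was NC_0, NC_1 and NC_2, and HS rested on HS_3 and HS_4 alone. This fit called 186 genes higher (1.5% of 12421 tested) and 193 lower (1.55%). These included 21 of the 27 and 42 of the 55.

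**Figure D2:**
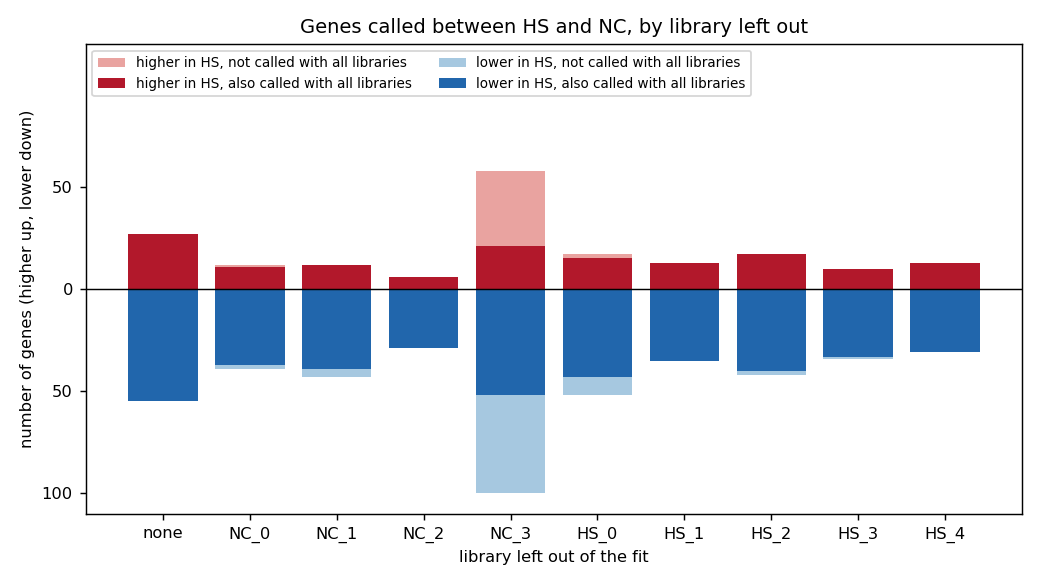
Number of genes called between HS and NC with all libraries and without each library in turn, higher genes upward and lower genes downward. Dark bars count genes that are also called with all libraries. The bars are shortest without NC_2 (6 higher, 29 lower) and tallest without NC_3 (58 and 100), where the light bars, genes not called with all libraries, are also longest.

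Each left-out library was then placed by the genes that were called without it, so that it had no part in choosing them. Each HS library lay outside the range of the NC libraries for at least 92.8% of the genes called without it: 64 of 69 for HS_0, 47 of 48 for HS_1, 57 of 59 for HS_2, 43 of 44 for HS_3 and 43 of 44 for HS_4. The share lying nearer the mean of their own diet was 79.7% for HS_0 and 93.8 to 97.7% for the other HS libraries. NC_0, NC_1 and NC_2 lay outside the HS range for 98.0, 92.7 and 100% of such genes. NC_3 did so for 89 of 158 genes (56.3%) and lay nearer the other NC libraries than HS for 69 (43.7%). No library was moved to another diet on these values.

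**Figure D3:**
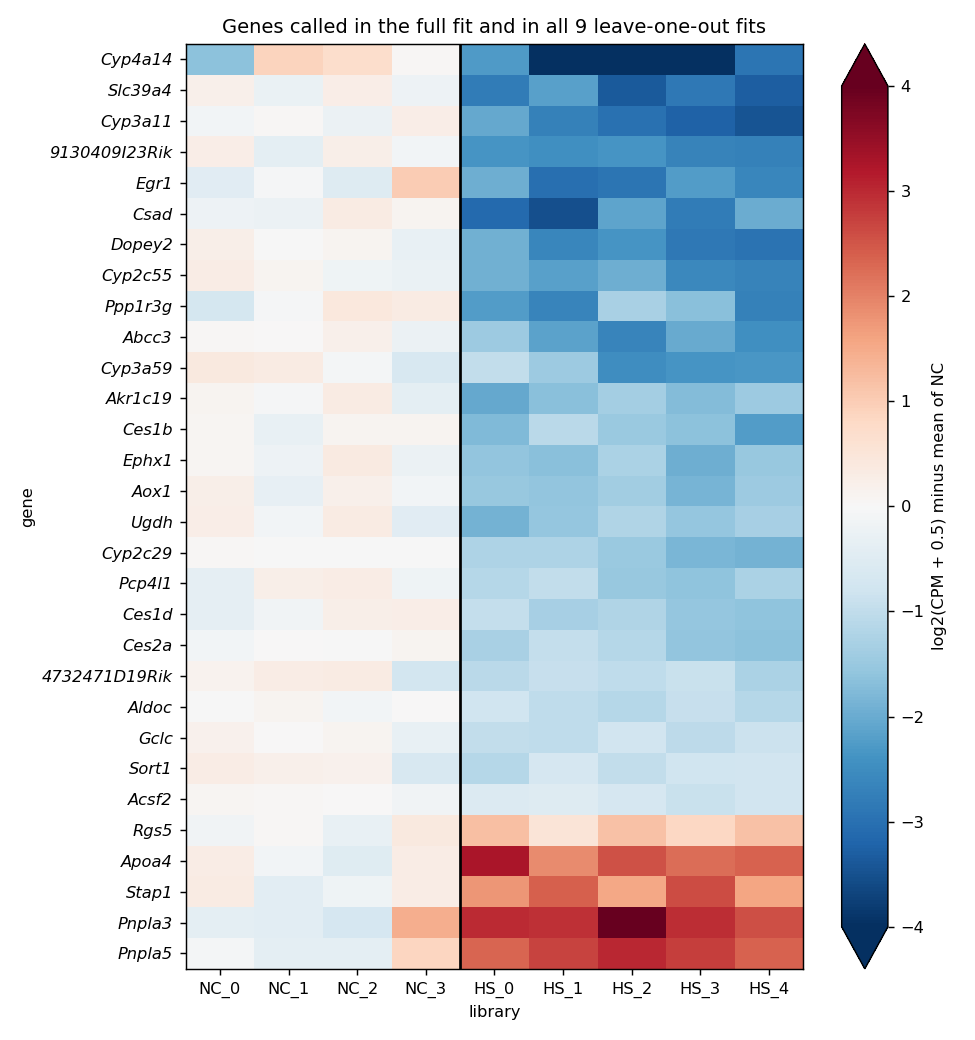
Level of the 30 genes called with all libraries and in all 9 leave-one-out fits, as log2(CPM + 0.5) minus the mean of the NC libraries, with genes in rows and libraries in columns. Colours stop at −4 and 4, which Cyp4a14 passes in 3 HS libraries and Pnpla3 passes in HS_2; the 25 lower genes are blue and the 5 higher genes red in all 5 HS libraries.

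The 5 rises that held in every repeat were in 2 neighbouring lipase genes, an apolipoprotein and 2 signalling genes. Pnpla5 and Pnpla3 encode patatin-like phospholipase domain proteins of lipid droplets and lie 44662 bases apart on chromosome 15. Pnpla5 (chromosome 15, 84112356 to 84123175) stood at 0.286, 0.138, 0.13 and 0.994 CPM in NC_0 to NC_3 and at 3.70, 4.89, 6.27, 5.17 and 3.75 CPM in HS_0 to HS_4, a log2 fold change of 3.58 ± 0.52 (SE; edgeR adjusted p = 0.00128). Every HS library was above the NC range, and NC_3 was the highest of the NC libraries. It rests on 11 reads over the 4 NC libraries and 159 over the 5 HS libraries. Pnpla3, whose product remodels triglyceride, ran from 1.43 to 7.95 CPM in NC, with NC_3 highest, and from 18.0 to 48.9 CPM in HS, with HS_2 highest. Without NC_3 the log2 fold change of Pnpla3 was 4.00 and that of Pnpla5 4.58, against 3.07 and 3.58 with all libraries.

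The bases before the start sites of this pair are shown because the genes lie side by side and rose together. RefSeq promoter windows (GRCm38.p6, 250 bases before to 50 after a start) were found for 61 of the 82 called genes, as 80 windows. They were searched on both strands for CACGTG (the E-box), TGACGTCA (the cyclic AMP response element) and TGACNNNGC (the core of the antioxidant response element, the motif that NRF2 binds with small MAF proteins), after the values had been seen. The 250 bases before each start are printed 5′ to 3′ on the strand of the gene, with matches in capitals.
Pnpla5, chr15:84123176-84123425, minus strand: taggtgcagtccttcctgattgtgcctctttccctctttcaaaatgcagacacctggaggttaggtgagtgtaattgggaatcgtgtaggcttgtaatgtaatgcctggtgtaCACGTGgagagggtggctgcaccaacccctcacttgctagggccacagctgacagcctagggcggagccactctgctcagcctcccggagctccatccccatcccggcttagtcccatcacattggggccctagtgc
Pnpla3, chr15:84167566-84167815, plus strand: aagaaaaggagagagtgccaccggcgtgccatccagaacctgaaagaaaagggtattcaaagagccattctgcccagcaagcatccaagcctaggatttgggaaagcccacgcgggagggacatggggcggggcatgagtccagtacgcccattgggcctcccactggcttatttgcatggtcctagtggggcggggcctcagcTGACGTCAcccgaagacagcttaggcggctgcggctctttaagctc
The capitals mark CACGTG starting 137 bases before the start of Pnpla5 (position −137) and TGACGTCA at position −46 of Pnpla3. Of 12482 windows of tested genes 9.81% hold CACGTG and 2.87% hold TGACGTCA. Among 20 windows of 16 risen genes, 7 (35%) hold CACGTG, in 6 genes, and among 60 windows of fallen genes 3 (5%) do. A match describes these letters only.

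Apoa4 encodes an apolipoprotein of triglyceride-rich particles. It stood at 217, 163, 127 and 216 CPM in NC and at 1688, 658, 1043, 833 and 912 CPM in HS, with HS_0 far above the other HS libraries and no overlap. Gm10680 and Gm47528 lie on the other strand of the locus, and their reads cannot be told apart from those of Apoa4. Its log2 fold change without HS_0 was 2.24, against 2.51 with all libraries, and in the fit of libraries with a rising length trend it was 2.37 with an adjusted p of 0.0819. It was 1 of 21 apolipoprotein and lipoprotein assembly genes to rise, and none fell (list median 0.20). Stap1, an adaptor protein of cytokine receptor signalling, stood at 0.573, 0.138, 0.259 and 0.568 CPM in NC and at 2.42, 4.07, 2.04, 4.76 and 2.10 CPM in HS (chromosome 5, 86071746 to 86106125; log2 fold change 2.96 ± 0.48, edgeR adjusted p = 0.00302, 11 and 104 reads). Rgs5, a regulator of G-protein signalling that marks pericytes, stood at 22.9, 26.7, 20.7 and 33.7 CPM in NC and at 58.9, 37.1, 57.7, 45.6 and 57.9 CPM in HS (chromosome 1, 169655501 to 169695813; log2 fold change 0.98 ± 0.17, edgeR adjusted p = 0.00524). Neither gene overlapped between diets, and the lowest HS value of Rgs5, in HS_1, was close to its highest NC value, in NC_3.

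Several other risen genes act in transport, hormone synthesis and signalling, and they were not called in every repeat. Slc22a7, the organic anion transporter OAT2 of hepatocytes, stood at 28.2, 28.5, 15.2 and 27.6 CPM in NC and at 59.3, 85.7, 63.7, 67.2 and 46.0 CPM in HS (log2 fold change 1.37 ± 0.25, edgeR adjusted p = 0.00951). NC_2 was its lowest library, and without it the adjusted p was 0.0595; it passed in the other 8 repeats. Cyp17a1, a P450 of steroid hormone synthesis, stood at 13.2, 6.09, 3.63 and 11.6 CPM in NC and at 37.4, 16.9, 34.5, 20.4 and 21.9 CPM in HS (log2 fold change 1.61 ± 0.30, edgeR adjusted p = 0.0121). All HS libraries were above all NC libraries, and the call was lost without NC_1 (adjusted p = 0.0606) and in the fit of libraries with a rising length trend (0.0549). Lrrc18, a leucine-rich repeat protein, rose from 6 reads over the NC libraries to 45 over the HS libraries (log2 fold change 2.6 ± 0.48) and lost its call without NC_2 (adjusted p = 0.0681).

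Serpina12, the adipokine vaspin, which mouse liver also makes, ran at 38.8 to 115 CPM in NC and 150.4 to 255 CPM in HS (log2 fold change 1.38 ± 0.30, edgeR adjusted p = 0.0324). It was called in 2 of 9 repeats and lost without NC_0, NC_1, NC_2, HS_0, HS_1, HS_2 and HS_3 (adjusted p over the repeats 0.0134 to 0.151). Mycn, a transcription factor of the MYC family, ran at 1.00 to 2.70 CPM in NC and 4.40 to 6.26 CPM in HS (log2 fold change 1.78 ± 0.38), and passed in 1 repeat, without NC_3. Lepr, the leptin receptor, had a log2 fold change of 1.46 ± 0.32, but its ranges overlapped (1.43 to 5.12 against 4.89 to 14.0 CPM) and 4 of 9 repeats called it. Acaca, the acetyl-CoA carboxylase that makes malonyl-CoA for fat synthesis, ran at 52.0 to 58.6 CPM in NC and 83.4 to 127 CPM in HS without overlap (log2 fold change 0.81 ± 0.18, edgeR adjusted p = 0.0378), yet it was called in 1 of 9 repeats, that without HS_4. The fatty acid synthesis list also holds the lipase genes Pnpla3 and Pnpla5. With Acaca they were the 3 of its 23 tested genes that rose, beside 0.214% of all genes.

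The remaining rises were smaller in level or less stable. Cntnap1 and Gria3, better known from neurons, had log2 fold changes of 2.16 ± 0.42 and 1.77 ± 0.35; Cntnap1 overlaps Plekhh3 on the other strand, whose reads cannot be told apart without the counted strand, and Gria3 overlapped between diets. Tff3, a trefoil peptide of mucous epithelium, ran at 0.13 to 1.43 CPM in NC and 1.99 to 7.76 CPM in HS and was called in 1 of 9 repeats. Cgref1, a growth regulator with EF hands, rose from 0.309 ± 0.0534 to 2.62 ± 1.47 CPM (SD, n = 4 and 5) and was called in 2 of 9. Hopx (a homeodomain cofactor), Il15ra (the interleukin 15 receptor alpha chain), Gpcpd1 (which splits glycerophosphocholine), Lgals8 (a galectin) and Fam124a had log2 fold changes of 0.96, 0.59, 0.75, 0.54 and 1.04, and were called in 1 to 4 of 9 repeats. The other 6 risen genes go by clone names or by D0H4S114: 2810410L24Rik (log2 fold change 1.62, 8 of 9 repeats), 4930452B06Rik (1.68, 3), 4930581F22Rik (0.85, 4), 3110082I17Rik (1.45, 1), BC025446 (0.63, 1) and D0H4S114 (1.44, 0).

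Aldehyde, epoxide and glutathione enzymes were among the fallen genes. Of 21 tested genes on the NRF2 and glutathione list, 4 fell, beside 0.437% of all genes, and none rose. The list median log2 fold change was −0.34, beside 0.02 over all genes. Aox1, aldehyde oxidase, stood at 171, 115, 169 and 134 CPM in NC and at 50.5, 48.6, 54.9, 39.6 and 52.3 CPM in HS (chromosome 1, 58029931 to 58106413; log2 fold change −1.58 ± 0.19, edgeR adjusted p = 0.000103). Gclc, the catalytic subunit that limits glutathione synthesis, ran at 616 to 852 CPM in NC and 368 to 449 CPM in HS. Ephx1, microsomal epoxide hydrolase, ran at 568 to 844 CPM in NC and 171 to 276 CPM in HS. Neither range overlapped, and these 3 genes were called in all 9 repeats. Aldh1a1, retinaldehyde dehydrogenase, fell from 1383 ± 234 to 637 ± 106 CPM (log2 fold change −1.12 ± 0.22, edgeR adjusted p = 0.0151) and lost its call without NC_2, HS_3 and HS_4 (adjusted p up to 0.0645). Gclm, the partner subunit of Gclc, had a log2 fold change of −0.55 ± 0.16 and did not pass (adjusted p = 0.152), nor did Nqo1, a standard NRF2 target (−0.87 ± 0.46, 0.504). The level of Nfe2l2, the NRF2 transcript itself, was 101 ± 20.5 CPM in NC and 93.8 ± 19.6 CPM in HS (adjusted p = 0.801).

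Genes of conjugation, the step that couples a carrier group to a compound, gave 4 falls. Of 20 tested glutathione S-transferases, which couple glutathione to electrophiles, Gsta2, Gsta4 and Gstm4 fell (0.437% of all genes did). None rose, and the list median was −0.47. Gsta2 ran at 3.18 to 10.9 CPM in NC and 0.136 to 1.88 CPM in HS (log2 fold change −2.97 ± 0.62, edgeR adjusted p = 0.0268). Gsta4, which clears 4-hydroxynonenal, had a log2 fold change of −1.28 ± 0.28 and Gstm4 one of −1.11 ± 0.22. None of the 3 overlapped between diets, but they were called in 4, 2 and 5 of 9 repeats (adjusted p up to 0.126, 0.143 and 0.0897), and transferases of 1 class may share reads. Gsta2 and Gstm4 did not pass in the fit of libraries with a rising length trend (adjusted p = 0.0928 and 0.068). Ugdh makes UDP-glucuronic acid, the donor for glucuronidation. It stood at 234, 180.2, 244 and 144 CPM in NC and at 52.2, 66.3, 85.8, 66.7 and 77.5 CPM in HS (chromosome 5, 65413221 to 65435949; log2 fold change −1.53 ± 0.28, edgeR adjusted p = 0.0109). All HS libraries were below all NC libraries and all 9 repeats called it, although the adjusted p in the fit of libraries with a rising length trend was 0.0724. It was the single call among 17 tested genes of glucuronidation, whose median was −0.41.

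The promoter letters of Ugdh are shown with those of 9130409I23Rik, where a window held 3 matches to TGACNNNGC. 9130409I23Rik lies 30333 bases from Ephx1 on chromosome 1 and stood at 20.9, 13, 20.5 and 15.9 CPM in NC and at 2.99, 2.77, 2.98, 2.31 and 2.25 CPM in HS (log2 fold change −2.72 ± 0.29, edgeR adjusted p = 2.41e-05). The HS libraries lay close together, all below every NC library.
Ugdh, chr5:65435843-65436092, minus strand: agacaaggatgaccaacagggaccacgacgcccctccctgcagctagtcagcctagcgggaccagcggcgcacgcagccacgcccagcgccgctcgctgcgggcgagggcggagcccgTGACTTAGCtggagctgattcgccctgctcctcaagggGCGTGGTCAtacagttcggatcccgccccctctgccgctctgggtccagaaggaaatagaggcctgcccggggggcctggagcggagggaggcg
9130409I23Rik, chr1:181050987-181051236, plus strand: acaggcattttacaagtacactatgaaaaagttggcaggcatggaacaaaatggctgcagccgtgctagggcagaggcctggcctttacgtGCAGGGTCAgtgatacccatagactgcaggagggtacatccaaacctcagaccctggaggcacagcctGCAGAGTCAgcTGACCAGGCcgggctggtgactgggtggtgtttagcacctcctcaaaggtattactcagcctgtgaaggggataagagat
The capitals mark the matches on either strand, at positions −132 and −94 of Ugdh and −159, −91 and −80 of 9130409I23Rik. Of all 12482 windows 14.3% hold a match, of the 60 windows of fallen genes 16.7% and of the 20 windows of risen genes 20%. Matches lay in 10 of the 45 fallen genes with a window. Aox1, Ephx1, Gclc, Aldh1a1, Gsta2, Gsta4 and Gstm4 were not among these, for want of a match or of a window.

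Carboxylesterases, hepatocyte enzymes that hydrolyse esters, drugs and stored triglyceride, gave 3 falls. Of 13 tested members 3 fell, beside 0.437% of all genes, and none rose. In 8 of them every HS library was below every NC library, beside 2.66% of all genes. The list median was −0.49. Ces1d, also called triacylglycerol hydrolase, stood at 458, 524, 687 and 701 CPM in NC and at 299.6, 231, 252, 200.4 and 189 CPM in HS (chromosome 8, 93166068 to 93197838; log2 fold change −1.34 ± 0.24, edgeR adjusted p = 0.00857). Ces1b ran at 44.9 to 59.2 CPM in NC and 11.4 to 25.7 CPM in HS (log2 fold change −1.63 ± 0.22), and Ces2a at 246 to 288 and 84.9 to 138 CPM (log2 fold change −1.31 ± 0.21). These 3 were called in all 9 repeats. The members without overlap that did not pass were Ces1g (log2 fold change −1.15, edgeR adjusted p = 0.0858), Ces1e (−0.84, 0.128), Ces1f (−0.74, 0.117), Ces2e (−0.45, 0.216) and Ces1c (−0.32, 0.392). Ces3b went the other way without overlap (log2 fold change 0.70) and did not pass (adjusted p = 0.422). In the fit of libraries with a rising length trend 7 of 13 were lower, beside 1.55% of all genes there. Members of a cluster resemble each other closely, so reads may be split between them.

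Of 22 tested genes listed as targets of the xenobiotic receptors CAR and PXR, 6 fell (0.437% of all genes did) and none rose. The list median was −0.81. Those that fell were Cyp3a11, Cyp2c29, Abcc3, Cyp2c55, Cyp3a59 and Cyp3a44. The list may not hold every target. Whether these receptors also act on the fallen genes under other headings was not tested. Akr1c19, an aldo-keto reductase on none of the lists, stood at 86.6, 78.4, 102 and 60.6 CPM in NC and at 19.1, 24.8, 31.4, 23.8 and 28.9 CPM in HS (log2 fold change −1.68 ± 0.26, edgeR adjusted p = 0.00211). Cyp2c55, a P450 that oxidizes fatty acids, ran at 15.1 to 22.5 CPM in NC and 2.40 to 4.41 CPM in HS (log2 fold change −2.40 ± 0.44). Cyp3a59 ran at 6.96 to 14.8 and 1.57 to 5.41 CPM (log2 fold change −2.0 ± 0.35). All 3 passed in every repeat, and none overlapped between diets. Cyp3a44 fell from 31 reads over the NC libraries to 2 over the HS libraries, with 3 HS libraries at 0, and was called in 5 of 9 repeats; it may share reads with Cyp3a11. Slco2a1, a prostaglandin carrier, overlapped between diets through NC_3 (172, 177, 221 and 80.5 against 44.5, 55.9, 62.9, 81.2 and 84.3 CPM; log2 fold change −1.31 ± 0.29) and passed in 1 repeat, that without NC_3 (adjusted p = 0.00565).

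A pair of sulfur amino acid genes fell. Csad, cysteine sulfinate decarboxylase, makes the precursor of taurine, which hepatocytes conjugate to bile acids. It stood at 492, 479.8, 714 and 603 CPM in NC and at 64.9, 48.6, 131, 81.1 and 143 CPM in HS (chromosome 15, 102176999 to 102204724; log2 fold change −2.61 ± 0.27, edgeR adjusted p = 1.76e-05), with no overlap and log2 fold changes of −2.79 to −2.45 over the repeats. Zfp740 lies on the other strand of the locus, and reads of the pair cannot be told apart where the counted strand is not known. Cth, cystathionine gamma-lyase, which makes cysteine, ran at 234 to 284 CPM in NC and 116 to 169 CPM in HS (log2 fold change −0.87 ± 0.18, edgeR adjusted p = 0.0272) and was called in 4 of 9 repeats. It lost its call without NC_0, NC_2, HS_0, HS_3 and HS_4 (adjusted p up to 0.0707). The other 22 of 24 tested serine, methionine and one-carbon genes did not pass. Among them Cbs, upstream of Cth, had 604 ± 27.4 CPM in NC and 556 ± 49.1 CPM in HS, and Cdo1, upstream of Csad, had 1417 ± 339.9 and 1406 ± 166 CPM.

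The zinc importer gene Slc39a4 was the called gene with the smallest adjusted p. It stood at 104, 74.6, 109 and 77.8 CPM in NC and at 12.5, 19.6, 8.31, 12.1 and 8.70 CPM in HS, so that the groups were far apart in all 9 libraries. The log2 fold change ran from −3.14 to −2.77 over the repeats. No other of 21 tested zinc transporter and metallothionein genes passed. Metallothioneins bind zinc and follow its level in the cell through MTF1. Mt1 stood at 8.02, 7.89, 8.30 and 7.67 CPM in NC and at 13.8, 10.8, 6.59, 8.57 and 5.25 CPM in HS (adjusted p = 0.946), and Mt2 at 0.716 to 1.42 and 0.45 to 1.85 CPM (0.975); their ranges overlapped. The exporter gene Slc30a1 had a log2 fold change of −0.50 ± 0.29 and did not pass (adjusted p = 0.551), nor did the importer Slc39a14 (0.28 ± 0.24, 0.675).

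**Figure D4:**
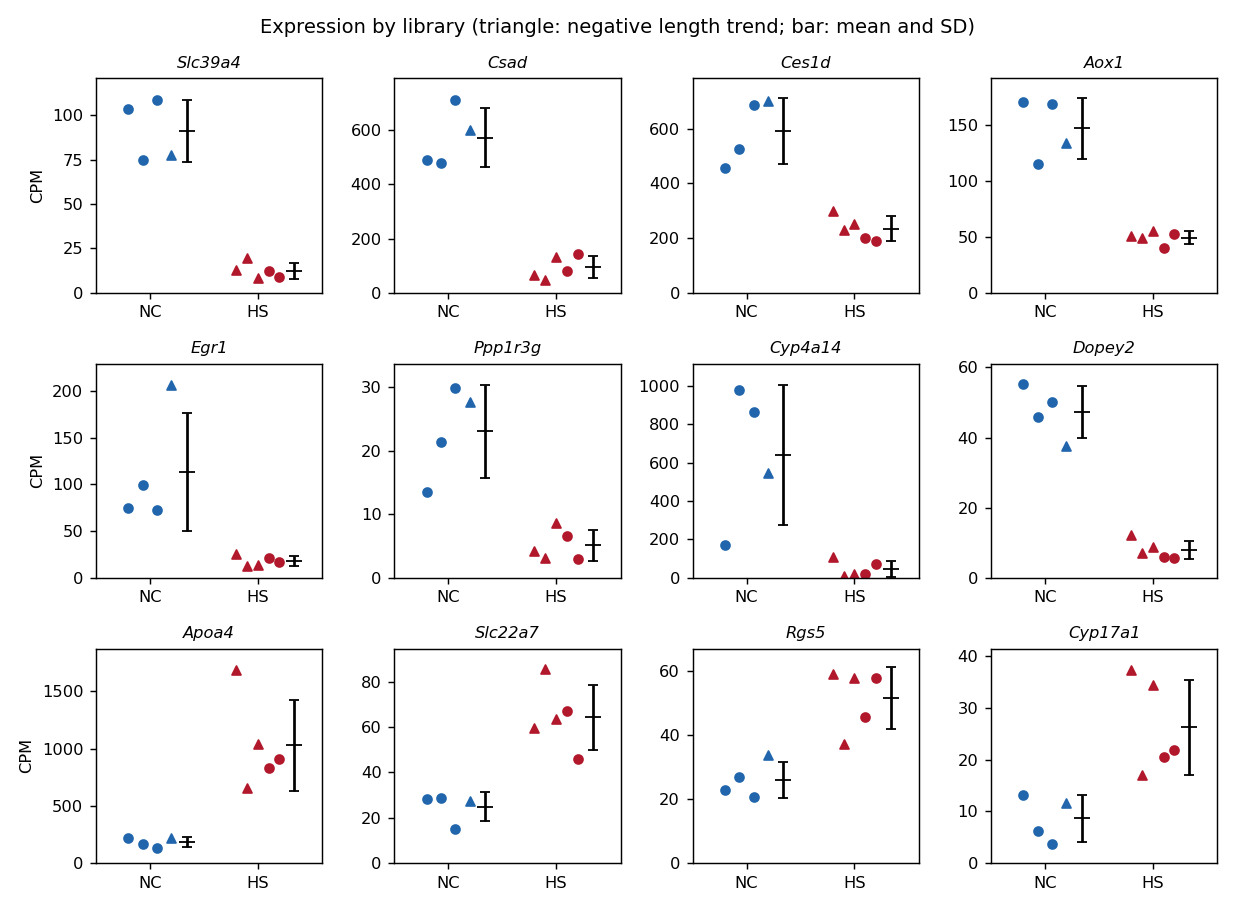
CPM of 12 called genes by library, one point each, with triangles for libraries with a falling length trend and bars for mean and SD. In these 12 genes the NC and HS points do not overlap; Egr1 is highest in NC_3 and Cyp4a14 lowest of the NC libraries in NC_0 (169 CPM).

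Fasting-state and fat-burning genes gave few calls. Ppp1r3g, a subunit that directs protein phosphatase 1 to glycogen, stood at 13.5, 21.3, 29.8 and 27.7 CPM in NC and at 4.27, 3.10, 8.63, 6.53 and 3.00 CPM in HS (chromosome 13, 35958839 to 35970388; log2 fold change −2.17 ± 0.34, edgeR adjusted p = 0.00298). It was the single call among 12 tested glycogen genes, held in all 9 repeats and had no overlap. Igfbp1, an insulin-repressed binding protein, stood at 153, 273, 187 and 407 CPM in NC and at 38.4, 101, 91.6, 95.5 and 113 CPM in HS and did not pass (log2 fold change −1.53 ± 0.46, adjusted p = 0.171). Fgf21, a hormone that rises in liver after sugar and in fasting, overlapped (5.40 to 20.9 against 5.87 to 23.9 CPM). Of 35 tested PPARalpha and fatty acid oxidation genes Cyp4a14 alone was called, 29 had a log2 fold change below 0 and the median was −0.20. Cyp4a14, a P450 that adds hydroxyl groups to fatty acids, varied widely within a diet: 169, 979, 863 and 548 CPM in NC and 109, 8.63, 19.5, 22.2 and 70.0 CPM in HS, with an adjusted p of 0.0927 in the fit of libraries with a rising length trend. Acsf2, an acyl-CoA synthetase of mitochondria, ran at 154 to 180.0 CPM in NC and 90.9 to 118 CPM in HS (log2 fold change −0.68 ± 0.10, edgeR adjusted p = 0.00205) and passed in every repeat.

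Several other fallen genes belong to none of the lists. Dopey2, a homolog of the yeast vesicle traffic protein Dop1, stood at 55.1, 46.0, 50.2 and 37.6 CPM in NC and at 12.1, 7.17, 8.78, 5.99 and 5.55 CPM in HS (chromosome 16, 93711904 to 93810590; log2 fold change −2.57 ± 0.24, edgeR adjusted p = 8.32e-06). The groups were far apart, and the log2 fold change ran from −2.79 to −2.44 over the repeats; 2310043M15Rik overlaps it on the other strand. Aldoc, the brain-type aldolase, stood at 21.2, 23, 19.8 and 21.9 CPM in NC and at 12.1, 10.4, 9.41, 11 and 9.45 CPM in HS (log2 fold change −1.03 ± 0.13, edgeR adjusted p = 0.000194). Its spread within each diet was small and all 9 repeats called it. Sort1, sortilin, a sorting receptor that affects lipoprotein secretion, ran at 37.2 to 72.0 CPM in NC, with NC_3 lowest, and 26.2 to 36.5 CPM in HS (log2 fold change −0.92 ± 0.17). Pcp4l1 (log2 fold change −1.41 ± 0.23) and 4732471D19Rik (−1.14 ± 0.19) were also called in every repeat; Sort1 and 4732471D19Rik each overlap a gene on the other strand.

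Fallen genes called in fewer repeats included secreted and transport proteins. Tsku, tsukushi, a protein that hepatocytes secrete, stood at 109, 62.3, 55.2 and 36.6 CPM in NC and at 13.7, 19.2, 19.5, 15.5 and 24.6 CPM in HS (log2 fold change −1.83 ± 0.35, edgeR adjusted p = 0.0132); it lost its call without NC_0 (adjusted p = 0.0713) and without HS_3 (0.0523), and in the fit of libraries with a rising length trend (0.151). Slc13a2, a carrier of citrate and succinate that overlaps Slc13a2os on the other strand, ran at 2.59 to 5.87 CPM in NC and 0.408 to 1.57 CPM in HS (log2 fold change −2.10 ± 0.39) and lost its call without NC_0 (0.0505) or HS_4 (0.0502). Ildr2, a membrane protein of the endoplasmic reticulum, ran at 18.5 to 44.6 CPM in NC, with NC_3 lowest, and 7.5 to 15.6 CPM in HS (log2 fold change −1.73 ± 0.38), and passed without NC_3 and without HS_3 only. Mreg, Tlcd2 and Mapre2 had log2 fold changes of −0.98, −0.87 and −0.84 and each lost its call without 1 library (NC_2, HS_4 and NC_2, with adjusted p = 0.0543, 0.0503 and 0.0683). Golm1, a Golgi membrane protein that hepatocytes make in injury, ran at 3.12 to 9.08 CPM in NC and 1.14 to 3.00 CPM in HS (log2 fold change −1.44 ± 0.33) and was called in 2 of 9 repeats.

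Aifm3, Afmid, Gda, Cryl1, Creg1, Plekhb1, Nabp1, Ppfibp2, Zfp385a, Wrnip1, Mpp1, Aplp2 and 4931406C07Rik made up the rest of the fallen genes outside the lists, with log2 fold changes from −1.19 to −0.52. None of these 13 was called in more than 6 repeats. In all, 21 of the 82 called genes overlap an annotated gene on the other strand; those not yet mentioned as such are Cyp2c55, Slco2a1, Ildr2, Golm1, Afmid, 4931406C07Rik, Ppfibp2, Wrnip1, Mpp1, Lgals8, 4930581F22Rik, Hopx, Fam124a and 3110082I17Rik. Creg1, a secreted lysosomal glycoprotein, was the most abundant of them in NC, at 590.4 ± 70.8 CPM, and stood at 346 ± 46.7 CPM in HS. Afmid, an enzyme of tryptophan breakdown, and Gda, guanine deaminase, had log2 fold changes of −0.99 ± 0.20 and −0.89 ± 0.19 and were each called in 4 repeats.

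Immediate early genes, which respond to stimuli within minutes, gave 3 falls. Of 17 tested, Egr1, Fos and Fosl2 fell, beside 0.437% of all genes, and none rose. The list median log2 fold change was −0.61. Egr1 stood at 75.2, 99.0, 72.5 and 207 CPM in NC and at 25.9, 12.2, 13.2, 21.6 and 16.5 CPM in HS; NC_3 was highest, and without it the log2 fold change was −2.20, against −2.66 with all libraries. Egr1 passed in every repeat but not in the fit of libraries with a rising length trend (adjusted p = 0.123). Fos, a subunit of the factor AP-1, stood at 3.44, 11.2, 9.86 and 4.97 CPM in NC and at 1.14, 0.978, 1.88, 2.04 and 1.95 CPM in HS (log2 fold change −2.19 ± 0.47, edgeR adjusted p = 0.0317). It did not overlap, its NC_3 value lay within the other NC libraries, and it was called in 2 of 9 repeats, those without NC_0 and without NC_3 (adjusted p over the repeats 0.0229 to 0.136). Fosl2 overlapped between diets through NC_3 (16.2, 15.6, 15.7 and 10.7 against 6.26, 6.52, 7.22, 7.89 and 10.9 CPM), and it passed in 2 repeats, without NC_3 (adjusted p = 0.00658) and without HS_4 (0.00674). Jun stood at 108 ± 23.1 CPM in NC and 57.5 ± 17.6 CPM in HS and did not pass (adjusted p = 0.0514); it passed without NC_3 (0.0199) and without HS_2 (0.0174).

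Of 20 clock genes only Cry1, a repressor of the clock, was called. It stood at 9.02, 12.2, 10.9 and 20.7 CPM in NC and at 6.40, 5.87, 5.65, 3.13 and 7.20 CPM in HS (log2 fold change −1.23 ± 0.27, edgeR adjusted p = 0.0378). NC_3 was its highest library, and without NC_3 the log2 fold change was −0.93 and the adjusted p 0.0842; the call held in 1 of 9 repeats, that without NC_0. Dbp ranged from 39.9 to 176 CPM within HS and did not pass (adjusted p = 0.341), and Per1 overlapped between diets (13.2 to 23.7 against 7.06 to 18.4 CPM). The time of harvest is not given in the sources used here, and its part in these values was not tested.

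No gene of fructose use and glycolysis passed among 19 tested, although 16 had a log2 fold change above 0 and the median was 0.35. There were 8 higher and 0 lower at an unadjusted p under 0.05, and 2 higher and 0 lower by DESeq2. Over all genes tested, 5.54% were higher and 5.56% lower at an unadjusted p under 0.05, and DESeq2 called 0.476% higher and 1.15% lower. Pklr, liver pyruvate kinase, stood at 413, 387, 404 and 455 CPM in NC and at 734, 762, 743, 719.8 and 623 CPM in HS, without overlap (log2 fold change 0.79 ± 0.22, edgeR adjusted p = 0.139). Khk, ketohexokinase, stood at 284, 301, 257 and 453 CPM in NC and at 652, 605, 651, 417 and 379 CPM in HS (log2 fold change 0.74 ± 0.19, adjusted p = 0.0967). NC_3 was inside the HS range of Khk, and without it the adjusted p was 0.0167. Mfsd2a, a carrier of lysophospholipids, was another gene in which NC_3 stood apart: 14.9, 9.69, 12.1 and 50.1 CPM in NC against 145, 73.6, 129.7, 84.9 and 79.2 CPM in HS, with an adjusted p of 0.062. It passed in 1 repeat (adjusted p over the repeats 0.00658 to 0.23) and was named after its values were seen.

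Genes of bile acid and cholesterol synthesis and of gluconeogenesis gave no call by edgeR. Cyp7a1, the first enzyme of bile acid synthesis, stood at 65.0, 42.2, 35.9 and 72.1 CPM in NC and at 12.1, 13.4, 12.1, 37.0 and 16.8 CPM in HS; HS_3 alone lay within the NC range, and without it the adjusted p was 0.00716. Cyp8b1, which makes cholic acid, ran at 467 to 818 CPM in NC and 304 to 449 CPM in HS without overlap but did not pass (log2 fold change −0.69 ± 0.23, adjusted p = 0.233). Of 23 cholesterol synthesis genes, 22 had a log2 fold change below 0, with a median of −0.34 and none called (0 higher and 5 lower at an unadjusted p under 0.05, and 0 higher and 2 lower by DESeq2, beside 5.56 and 1.15% of all genes lower). The 16 bile acid synthesis genes had a median of −0.20 (0 higher and 5 lower at an unadjusted p under 0.05, and 0 higher and 1 lower by DESeq2). The 12 gluconeogenic genes had a median of 0.07 (1 higher and 0 lower at an unadjusted p under 0.05, and 0 higher and 0 lower by DESeq2). Hamp, hepcidin, overlapped between diets (259 to 871 against 428 to 1220.3 CPM, adjusted p = 0.603).

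**Figure D5:**
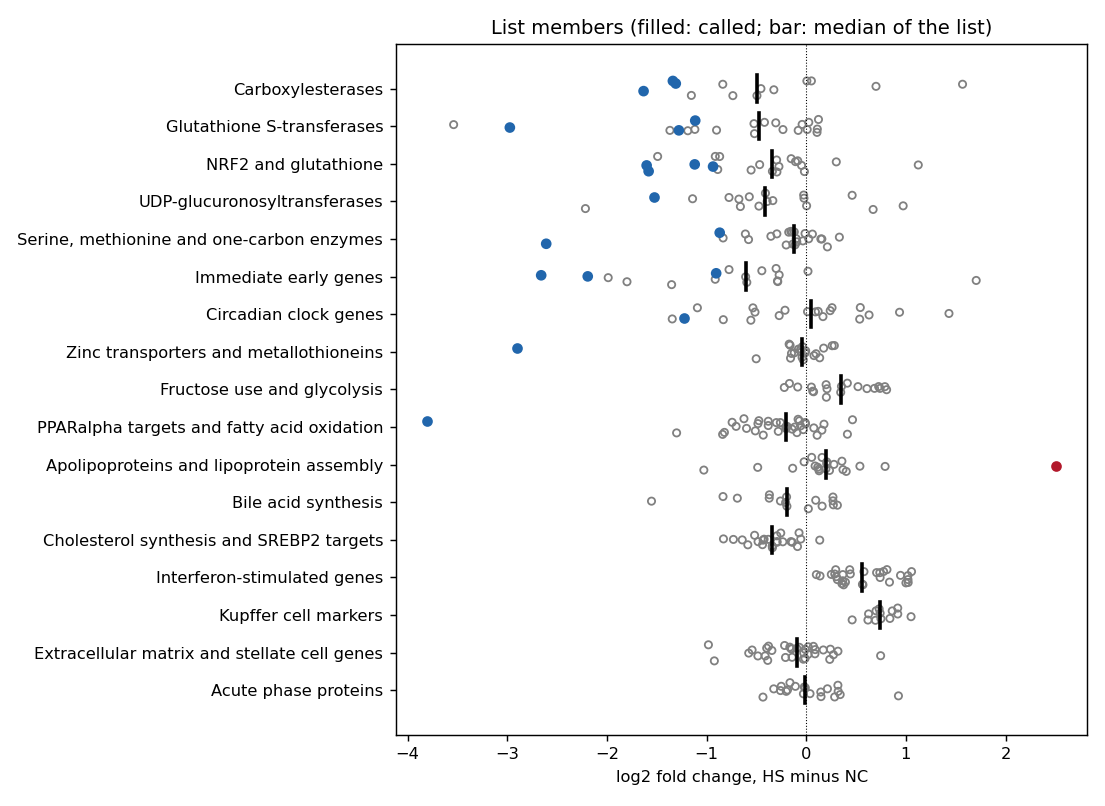
Log2 fold change of HS minus NC for each tested member of 17 gene lists, with filled points for called genes and a bar at the list median. Calls lie left of 0 in the detoxification and immediate early lists, all interferon-stimulated genes and Kupffer cell markers lie right of 0 with none called, and Apoa4 and Slc39a4 stand alone in their lists.

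Markers of other liver cells gave no call by edgeR. All 13 Kupffer cell markers (resident macrophages) had a log2 fold change above 0, with a median of 0.74, but each overlapped between diets, and their summed level was 127 to 210.5 CPM in NC and 161 to 415 CPM in HS. There were 5 higher and 0 lower at an unadjusted p under 0.05 (5.54% of all genes were higher), and 0 higher and 0 lower by DESeq2. In a bulk sample more cells of a type and more RNA per cell cannot be told apart. Clec4f, a receptor restricted to Kupffer cells, stood at 20.9, 25.8, 24.8 and 38.8 CPM in NC and at 45.4, 37.1, 30.6, 50.6 and 67.8 CPM in HS (log2 fold change 0.75 ± 0.31, adjusted p = 0.368). In the fit of libraries with a rising length trend, HS rested on HS_3 and HS_4 alone. That fit called 7 of 13 Kupffer and 13 of 18 endothelial markers higher, against 1.5% of all genes there. The 18 endothelial markers summed to 329 to 653 CPM in NC and 423 to 647 CPM in HS. With all libraries 1 of them was higher at an unadjusted p under 0.05 and none by DESeq2. None of these genes was called with all libraries. The 33 extracellular matrix and stellate cell genes had a median of −0.10, the 20 acute phase proteins one of −0.01 and the 26 cell cycle genes one of −0.55, with no call. At an unadjusted p under 0.05 these 3 lists held 2, 1 and 4 lower genes and 0, 1 and 0 higher genes. Over all genes 5.56% were lower and 5.54% higher. DESeq2 called no member of these 3 lists.

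Interferon-stimulated genes, which antiviral signalling induces in many cell types, had 29 of 29 members above 0, with a median of 0.56, and none was called (9 higher, beside 5.54% of all genes, and 0 lower at an unadjusted p under 0.05, and 0 higher and 0 lower by DESeq2). Their summed level was 788 to 897 CPM in NC and 1043 to 1240.5 CPM in HS, without overlap. Of the 29, 7 had every HS library above every NC library, beside 2.17% of all genes. Ifit1, which binds foreign RNA, stood at 4.73, 6.51, 9.47 and 4.83 CPM in NC and at 13.1, 12.9, 10.5, 10.7 and 14.5 CPM in HS (log2 fold change 0.95 ± 0.33, adjusted p = 0.255), and Ifit3 at 3.46 to 7.24 and 8.57 to 12.9 CPM. The Kupffer cell markers moved in the same direction in these libraries, and their part in the interferon values was not tested.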

How the data were processed

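Per the labels' protocols, total liver RNA went into stranded TruSeq libraries, read in 1 direction over 50 bp. The authors deposited raw read counts for 34436 gene symbols, made with STAR 2.6.1c on mm10 per the submitters' processing notes; the strand counted is not given in the sources used here. Columns were matched to diets by name. They number from 0 and the labels from 1, so none was matched to a single sample. A further 3 columns whose names match no label were left out.

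Counts of 20 libraries of 5 diets were fitted in R 4.3.3 with edgeR 4.0.16 (filterByExpr, TMM, robust quasi-likelihood fit, 1 mean per diet). The contrast was HS minus NC, called at a Benjamini-Hochberg adjusted p under 0.05. CPM uses effective library sizes. Errors are SD over libraries, or an approximate SE of the log2 fold change. This SE is the absolute log2 fold change divided by the square root of the F statistic of the test. Depth, 6790751 to 8215500 reads per library, limits genes under 1 CPM to a few reads. The procedure was tested on simulated counts drawn independently for each library without a length trend, so that check does not cover the trend seen here. Symbols and positions come from GENCODE M21 (GRCm38), which may not be the annotation counted. Of 12595 genes tested, 4150 overlap a gene on the other strand or were not matched.

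The libraries, 59 gene lists and the rule for named genes were chosen with earlier results of these data known. The rule took the 12 largest rises and 15 largest falls of at least 5 CPM without overlap, called list members, genes called in all repeats, 6 genes called in repeats only, and 12 set genes; others are named to account for every fallen or risen gene. Alternatives were DESeq2 1.42.0, other scaling, filters, samples and terms.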

Additional observations from a re-analysis of the deposited data

Results flagged for a closer look

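Among 99 named genes, looked at in the NC and the HS libraries separately (198 groups), 12 had 1 library far from the others by the gap test of Dixon; chance alone flags about 1 in 20 groups. Among the genes on fat and drug handling, Pnpla3 reached 7.95 CPM in NC_3 against at most 1.86 in the other NC libraries, and 48.9 CPM in HS_2 against at most 23.9 in the other HS libraries. The carboxylesterase gene Ces1b was lowest in NC_1 at 44.9 CPM, with the next at 58.3, and the transporter gene Slc22a7 was lowest in NC_2 at 15.2 CPM, with the next at 27.6. Cyp7a1 reached 37.0 CPM in HS_3, with the next at 16.8, and Igfbp1 was lowest in HS_0 at 38.4 CPM, with the next at 91.6. Fosl2 was lowest in NC_3 at 10.7 CPM, with the next at 15.6.

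The other single libraries were Lrrc18 in HS_2 (0.941 CPM, next 1.36), Plekhb1 in HS_4 (26.4, next 37.5), Cgref1 in NC_2 (0.389, next 0.286), Fam124a in NC_0 (7.45, next 11.9) and D0H4S114 in NC_2 (10.6, next 7.53). NC_2 held 3 of the 12, NC_3 and HS_2 held 2 each, and HS_1 held none.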

How the results depend on the processing

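Against 27 higher and 55 lower genes, leaving out each replicate gave 6 to 58 higher and 29 to 100 lower. The counts were 14 and 59 with a stricter filter on low counts, 16 and 48 in a fit without the HS_Chol libraries, 49 and 94 with the sign of the length trend as a term, 186 and 193 in the libraries with a positive length trend only, and 60 and 145 with DESeq2, which called all 82 genes. They were 26 and 58 with the size factors of DESeq2, 24 and 51 with no filter, and 35 and 73 in a fit of HS and NC only. The fit of HS and NC only tested 11264 genes, and its calls included 20 of the 27 and 45 of the 55. Without genes that overlap another on the other strand the counts were 21 and 46. The causes of these differences were not tested. Of the 82 genes, 17 (1 higher and 16 lower) were tested and called in every alternative, and none of the 82 changed direction in any. Csad, Dopey2, 4732471D19Rik, Stap1 and Pnpla5 were called in all 9 repeats. They were also called in 9 of the 10 other alternatives, and the remaining alternative did not test them. With the replicate number as a block, 9 and 26 genes were called, 34 of them among the 82. Correlations of deviations cannot decide whether the numbers pair the samples, because each same-number pair joins libraries of opposite length trend. NC and HS libraries with the same number had correlations from −0.482 to −0.0815 (4 pairs), and other pairs from −0.504 to 0.569 (16 pairs).

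Among the 12 set genes, 3 that were never called changed sign. The log2 fold change of Dbp was −0.0239 in the libraries with a positive length trend. That of Mt1 was −0.215 with the trend term, −0.214 in the libraries with a positive trend, and −0.0427 to 0.344 when each replicate was left out (below 0 without HS_0). That of Mt2 was 0.0206 with the replicate block and −0.472 to 0.0893 when each replicate was left out (above 0 without NC_3, HS_3 or HS_4). Depth limits Pnpla5, Stap1, Lrrc18 and Cgref1, which rest on 6 to 11 reads over the NC libraries.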

Other observations

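Called genes often lay beside each other. Within 300000 bases of another called gene lay 19 of the 82 (23.2%), in 11 pairs, and both genes of every pair moved the same way; of 12277 other tested genes 571 (4.65%) had a called gene that close. This count was made after the values were seen. Several pairs join related enzymes of similar sequence: Ces1b with Ces1d, Gsta4 with Gsta2, Cyp2c55 with Cyp2c29, and Cyp3a11, Cyp3a44 and Cyp3a59 with each other. Others join unlike genes. Ephx1 lies 30333 bases from 9130409I23Rik, Aldoc 69306 from Slc13a2, Abcc3 164105 from Acsf2, and Gstm4 239188 from Sort1.

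Major urinary proteins, abundant secreted carriers of pheromones whose genes resemble each other closely, had 17 of 18 tested members above 0 and a median log2 fold change of 0.82, with none called by edgeR (4 higher and 0 lower at an unadjusted p under 0.05, beside 5.54 and 5.56% of all genes, and 0 higher and 0 lower by DESeq2). Mup21 stood at 225, 343, 382 and 311 CPM in NC and at 465, 996, 1060.1, 625 and 683 CPM in HS, without overlap (log2 fold change 1.28 ± 0.44, adjusted p = 0.257); it was chosen after its values were seen. The 24 male-biased liver genes, some of them urinary proteins as well, had a median of 0.28, and of 13 female-biased genes Cyp17a1 rose and Cyp3a44 fell (median −0.42). Integrated stress response genes, which follow amino acid shortage and ER stress, had a median of −0.31 over 17 members. At an unadjusted p under 0.05, 0 were higher and 5 lower, beside 5.54 and 5.56% of all genes. DESeq2 called 0 of them higher and 2 lower, beside 0.476 and 1.15% of all genes. The 20 ER chaperone and XBP1 genes had a median of 0.02 (1 higher and 1 lower at an unadjusted p under 0.05, and 1 higher and 0 lower by DESeq2), and the 27 respiratory chain subunits one of 0.15 (1 higher and 0 lower at an unadjusted p under 0.05, and 0 higher and 0 lower by DESeq2).

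Of the genes not called with all libraries, 4 were called in 2 of 9 repeats (Rin3, Jun, Rap2a and Sox12) and 98 in 1 repeat; of the 98, Acyp1 and Cyp7a1 had the smallest p with all libraries. Rin3, a guanine nucleotide exchange factor for RAB5, ran at 34.8 to 42.5 CPM in NC and 25.9 to 32.0 CPM in HS (log2 fold change −0.47 ± 0.11, edgeR adjusted p = 0.0514). Rap2a, a small GTPase, ran at 28.5 to 34.2 and 17.8 to 24.2 CPM (−0.63 ± 0.15, 0.0558). Acyp1, acylphosphatase, ran at 3.32 to 5.82 and 7.08 to 8.40 CPM (0.86 ± 0.20, 0.0511); none of these 3 overlapped between diets. Sox12 overlapped (−0.92 ± 0.25, 0.119).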
